A study of Rattus norvegicus with 10 samples.

Results

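The genes described here are 10 enzymes of muscle amino acid breakdown and nitrogen disposal, namely Glul, Bcat2, Bckdha, Bckdhb, Bckdk, Got1, Got2, Gpt, Aldh6a1 and Hibadh. They were read on every probe set that the annotation of the array platform pairs with 1 of these genes alone, which gave 15 probe sets for the 10 genes, of 14217 genes measured in this way. Each of 10 arrays carried RNA of gastrocnemius muscle combined from 5 male Wistar rats, so that every group had 1 array, no group had a replicate and no spread between animals can be seen. At each duration the groups were 5%, 10%, 20% and 30% calorie restriction (CR) and a control group, and the durations were 1 month and 1 week. All rats, controls included, were bought at 5 weeks of age, entered the restriction period at 6 weeks of age on the same purified diet and were fasted for 16 h before tissue collection, so a fasted control is the baseline of every comparison. The question was how the level and the duration of CR move these transcripts.

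Skeletal muscle is the main site where the branched-chain amino acids (BCAAs) leucine, isoleucine and valine lose their amino group. The aminotransferase of the mitochondria passes this group to alpha-ketoglutarate, which thereby becomes glutamate. The branched-chain ketoacid dehydrogenase complex then commits the carbon skeleton to oxidation, and a kinase keeps that complex inactive by phosphorylation. Muscle exports the nitrogen to other organs mainly as glutamine and alanine, which are made by glutamine synthetase and by aminotransferases.

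Glutamine synthetase, encoded by Glul, joins ammonia to glutamate. Glul was the gene among these 10 that moved with the level of CR, and its RefSeq promoters are shown because its 3 probe sets moved together. RefSeq build GRCr8 gives Glul 2 promoters on the plus strand, each of 300 bases (250 before to 50 after a start site), at chr13:68519250-68519549 and chr13:68575816-68576115. They are written 5′ to 3′, and capitals mark the CACCC box, a motif bound by Krüppel-like factors.
Glul upstream start: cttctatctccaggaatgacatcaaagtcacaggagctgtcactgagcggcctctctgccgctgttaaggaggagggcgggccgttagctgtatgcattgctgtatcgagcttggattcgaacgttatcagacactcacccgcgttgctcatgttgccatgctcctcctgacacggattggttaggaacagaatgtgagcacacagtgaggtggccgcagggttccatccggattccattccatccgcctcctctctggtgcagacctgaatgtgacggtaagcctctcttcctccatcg
Glul downstream start: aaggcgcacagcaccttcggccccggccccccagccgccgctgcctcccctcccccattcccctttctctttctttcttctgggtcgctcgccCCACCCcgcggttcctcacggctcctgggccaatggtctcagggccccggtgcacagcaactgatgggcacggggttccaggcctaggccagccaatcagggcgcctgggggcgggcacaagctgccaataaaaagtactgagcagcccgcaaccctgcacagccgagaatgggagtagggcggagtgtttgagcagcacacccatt
The upstream promoter held 54.7% G and C and none of the motifs searched, while the downstream one held 65.7% G and C and a single CACCC box at position -157 from the start site.

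The motifs were searched on both strands and no match overlapped another. They were the CACCC box (CCACCC), the forkhead core bound by FOXO factors (GTAAACA), the E-box (CACGTG) and paired glucocorticoid receptor half-sites (GNACA and TGTNC, 3 bases apart). The table holds 9 promoters of 8 of the genes. The CACCC box was present in 5 of these 9 promoters, belonging to Glul, Bckdk, Bckdhb, Hibadh and Aldh6a1, against 29.4% of all 33469 promoters. The forkhead core, the E-box and the paired half-sites were in 0 of the 9 promoters, against 3.78%, 6.42% and 0.439% of all promoters. These are matches of letters in a fixed window and carry no information on binding.

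Some features of the whole data set bear on every value below. The deposited signals had been scaled to a trimmed mean of 85.68 to 85.81 on the 1-month arrays and of 98.84 to 98.92 on the 1-week arrays, so that only ratios within a duration are free of this step. A probe set was tested where its mean over the arrays reached 17.84, which left 15521. The skeletal muscle genes Acta1 (7237 to 12425) and Ckm (6704 to 11660) were bright on all arrays, and the hepatocyte gene Alb stayed between 0.6 and 10. The 1-week control stood apart in its slow fibre genes, with a mean log2 signal of 9.43 to 10.4 on the CR arrays of that duration against 8.68 on that control, and at 1 month of 9.32 to 9.85 on CR arrays against 9.80 on the control. In the fast fibre genes the 1-month control stood apart, at 13.01 against 12.44 to 12.78 on its CR arrays. At 1 week these were 12.92 on the control and 13.06 to 13.09 on CR arrays. The description line of the 1-week control in the labels also contradicts its title, since it states a reduced diet, and that of the 1-week 5% CR array states the control diet. The groups were taken from the titles and the restriction labels. The fits over both durations were computed again with these arrays exchanged. This was done for the 10 genes and for Cdo1, Gatm, Slc38a3, Slc43a1, Klf15, Foxo3 and Ppargc1a. The fits of 1 week alone and those of genes of other cell types were not computed again in this way.

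On its brightest probe set, Glul had a signal of 2037 on the 1-month control and of 2994, 3258, 3358 and 3708 at 5%, 10%, 20% and 30% CR for 1 month. After 1 week it had 2086 on the control and 2113, 2501, 3352 and 3775 at the same levels. As titled, all 8 CR arrays lay above the control of their duration, but the 1-week 5% CR array by a log2 ratio of only 0.02. With the 1-week control and 5% CR arrays exchanged, the 5% CR array would have 2086 against 2113 on the control. The ratios were 0.56, 0.68, 0.72 and 0.86 at 1 month and 0.26, 0.68 and 0.86 at 10% to 30% CR for 1 week, so that 30% CR gave a 1.82-fold signal after 1 month and a 1.81-fold signal after 1 week.

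The remaining probe sets of Glul ran in parallel with the brightest. The second had 1345 on the 1-month control and 1859, 2106, 2167 and 2618 with increasing CR, and 1338 on the 1-week control and 1317, 1639, 2038 and 2577 with increasing CR. The last had 1144 on the 1-month control and 1994, 2289, 2395 and 2752 with increasing CR, and 1053 on the 1-week control and 947, 1393, 2335 and 2564 with increasing CR. On both of them the 1-week 5% CR array was below its control, by log2 ratios of -0.02 and -0.15, and the 7 remaining CR arrays were above. At 30% CR the dimmest Glul probe set reached 2.41-fold at 1 month and 2.43-fold at 1 week. Across the 10 arrays, the deviations of the 3 probe sets from their duration means correlated with Pearson's r of 0.975 to 0.992, which describes probe sets of 1 transcript on shared arrays.

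**Figure D1:**
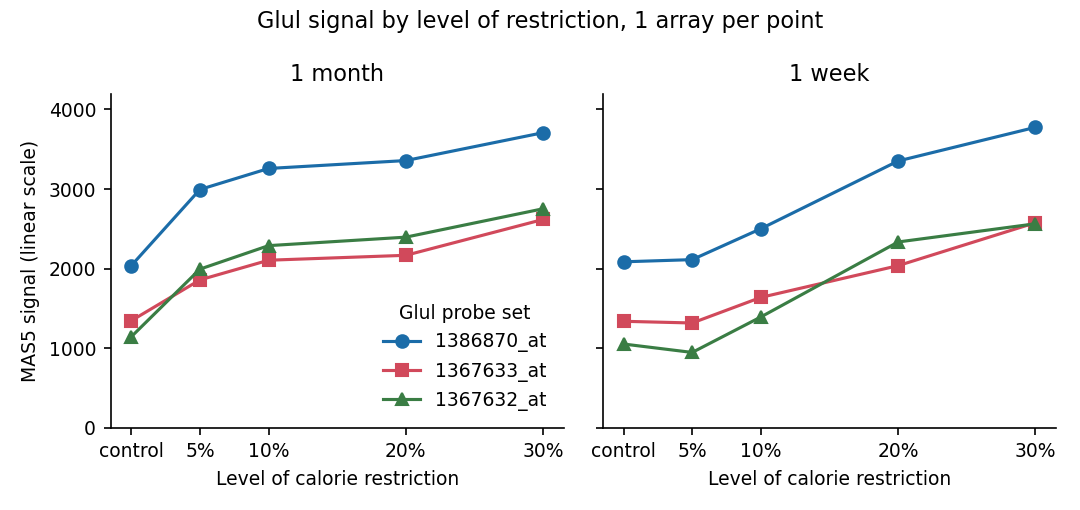
Signal of the 3 Glul probe sets (linear scale, y axis) against the level of CR (x axis, control to 30%), at 1 month on the left and 1 week on the right, 1 array per point. At 1 month the brightest probe set is already at 2994 at 5% CR against 2037 on the control, while at 1 week it stays near the control at 5% CR (2113 against 2086) and climbs to 3775 at 30%.

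In the dose trend, fitted to the log2 signals of both durations with a separate baseline for each, Glul was up-regulated with a slope of 0.27 ± 0.04 (SE) per 10 percentage points of CR, a 95% interval of 0.19 to 0.36 and a limma adjusted p of 0.00348. The other probe sets of Glul had slopes of 0.30 ± 0.03 and 0.43 ± 0.06, with limma adjusted p of 0.00131 and 0.00348. Glul was thus 1 of 10 genes called in this trend, against 0.941% of all probe sets called as higher. The other 9 genes were not called. The slope was also computed for Glul with the 1-week control and 5% CR arrays exchanged, which gave 0.27 with a limma adjusted p of 0.00861, and it stayed past the threshold without any single array, at 0.24 to 0.32. Glul is among the genes that the study itself singled out with the use of these arrays, so its call is no independent evidence for its direction.

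The shape of the response over CR levels was read at each duration. With 1 month alone, the dose slope of Glul was 0.23 ± 0.06 (limma adjusted p = 0.333, with 6 probe sets called in all), while the contrast of the 4 CR arrays with their control was 0.70 ± 0.12 (limma adjusted p = 0.0286). With 1 week alone, the slope was 0.32 ± 0.03 (limma adjusted p = 0.00367), while the contrast of CR with control was 0.46 ± 0.24 (limma adjusted p = 0.628). The second probe set was not called in the 1-month contrast (0.69, limma adjusted p = 0.0731), and each of these contrasts sets 4 arrays against a control of 1 array, whose own error cannot be estimated. The difference between durations was itself not called, with 0.25 ± 0.32 for CR against control (limma adjusted p = 0.918) and -0.09 ± 0.08 for the slope (limma adjusted p = 0.901).

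Over both durations together, CR against control gave 0.58 ± 0.16 for Glul with a limma adjusted p of 0.0808, and 0.57 and 0.85 on its other probe sets with limma adjusted p of 0.124 and 0.118. In this contrast 0 of the 10 genes were called by limma, against 2% of all probe sets, and 1 of 10 had an unadjusted p under 0.05, against 14.2% of all. Without the 1-week 5% CR array, the array whose Glul signal lay at the control level, the estimate was 0.65 and passed (limma adjusted p = 0.00988). With the 1-week control and 5% CR arrays exchanged, the estimate for Glul was 0.57 and did not pass (limma adjusted p = 0.377). It was 0.70 without the 1-week control and 0.46 without the 1-month control, fits that leave a single control array. The dose slope over the 8 CR arrays alone, in which no control array enters, was 0.23 ± 0.04 on the brightest probe set (limma adjusted p = 0.0552) and 0.27 ± 0.04 on the second (limma adjusted p = 0.0154). On the brightest probe sets this trend called 0 of 10 genes, against 0.245% of all probe sets, and 2 of 10 had an unadjusted p under 0.05, against 10.4% of all.

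Genes of other cell types moved with CR on the same arrays. Over all probe sets, the dose trend called 0.941% as higher and 1.06% as lower. In bulk tissue, more cells of a type and more RNA per cell cannot be told apart. Of the fibroblast genes, 4 of 10 were up-regulated in the dose trend (Clec3b, Scara5, Mfap5 and Dcn), and the list mean was 9.32 to 9.74 log2 on CR arrays against 9.21 on the control at 1 month, and 9.99 to 10.02 against 9.69 at 1 week. Of the macrophage genes, 2 of 8 were up-regulated (C1qc and C1qb), with a mean of 5.85 to 6.51 on CR arrays against 5.66 on the control at 1 month, and 6.32 to 6.39 against 5.94 at 1 week. These means did not hold for every gene. At 1 week C1qb was 60.3 and 54.2 at 5% and 10% CR against 64.5 on the control, and C1qc 65.8 at 10% CR against 69.8. As titled, Cd163 rose from 13.3 on that control to between 39.2 and 53.2. The median fibroblast gene at 1 month was 9.50 and 9.53 log2 at 5% and 10% CR against 9.66 on the control, and 10.20 and 10.04 at 20% and 30% CR. Of the adipocyte genes, 1 of 4 tested was up-regulated (Cfd), with a mean of 6.36 to 6.82 on CR arrays against 6.25 on the control at 1 month, and 6.45 to 6.98 against 6.29 at 1 week. Of the endothelial genes, 1 of 8 tested fell (Kdr). The 1-week values rest on the titles of the control and 5% CR arrays. Exchanged, the fibroblast mean would be 9.99 on the control, 9.69 at 5% CR and 10.00 to 10.02 at 10% to 30% CR. The macrophage mean would be 6.32 on the control, 5.94 at 5% CR and 6.32 to 6.39 at 10% to 30% CR. The adipocyte mean would be 6.45, 6.29 and 6.46 to 6.98 in the same order. Cd163 would have 39.2 on the control. The adipocyte genes Plin1 (1.9 to 13.4) and Lep (0.5 to 3.1) had means below the filter. So did the macrophage genes Adgre1 (5.2 to 17.6) and Itgam (0.8 to 3.4), and none was at 0. The adipocyte genes Adipoq (11.9 to 39.3) and Lipe (52.4 to 92.5) passed the filter and were not called in the dose trend. The part of these cell types in the Glul signal was not tested. With the mean of the slow fibre genes as a covariate, the Glul slope was 0.29 (limma adjusted p = 0.0223).

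The aminotransferase and dehydrogenase genes of BCAA breakdown did not pass in any comparison of CR with control. Bcat2 encodes the mitochondrial BCAA aminotransferase, the step that removes the amino group. It had a signal of 144.9 on the 1-month control and of 139.6, 170.5, 137.7 and 145.3 with increasing CR, and after 1 week 142.9 on the control and 106.4, 136.4, 140.2 and 144.2 with increasing CR. Apart from the high 1-month 10% CR array and the low 1-week 5% CR array, these values lay between 136.4 and 145.3. The dose slope was 0.025 with a 95% interval of -0.07 to 0.12 (limma adjusted p = 0.863), which leaves room for slopes of either sign.

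Bckdha and Bckdhb encode the alpha and beta subunits of the decarboxylase component of the ketoacid dehydrogenase complex. Bckdhb had 733.8 on the 1-month control and 771.1, 815.4, 689.4 and 692.4 with increasing CR, and after 1 week 726.5 on the control and 685.0, 703.7, 874.6 and 987.4 with increasing CR. The 20% and 30% CR arrays were thus the lowest of the 1-month set and the highest of the 1-week set. Within 1 month its slope was -0.05 ± 0.04 (limma adjusted p = 0.76), within 1 week it was 0.18 ± 0.04 (limma adjusted p = 0.0889), and the difference between the slopes, -0.23 ± 0.06, had an unadjusted p of 0.00172 and a limma adjusted p of 0.745.

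Bckdha had 245.9 on the 1-month control and 227.9, 249.3, 230.4 and 261.5 with increasing CR, so that CR arrays stood on both sides of the control. After 1 week its signal was 201.9 on the control and 183.4, 210.0, 251.9 and 245.0 with increasing CR, with the 20% and 30% CR arrays highest as for Bckdhb. Its dose slope over all arrays was 0.08 ± 0.04 (95% interval 0.0057 to 0.16) with a limma adjusted p of 0.305. A dimmer probe set of Bckdha, with signals of 0.5 to 11.2, did not pass the filter on low signals and was not tested. Bckdk, the kinase that phosphorylates and inactivates the complex, varied between 1010 and 1228 over all 10 arrays, and its log2 ratios to control spanned 0.06 to 0.28 after 1 month and -0.11 to 0.14 after 1 week. All 4 CR arrays of Bckdk were above the control at 1 month, whereas at 1 week 1 of 4 was, and its slope was 0.044 with a 95% interval of -0.02 to 0.11 (limma adjusted p = 0.557).

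Hibadh and Aldh6a1 act further down the valine pathway, on 3-hydroxyisobutyrate and on methylmalonate semialdehyde. The signal of Hibadh was 1233 to 1408 on CR arrays against 1364 on the control at 1 month, and 1422 to 1680 on CR arrays against 1654 on the control at 1 week. Aldh6a1 had 428.0 to 461.2 on CR arrays against 468.2 on the control at 1 month, and 487.1 to 503.8 on CR arrays against 482.8 on the control at 1 week. Neither gene was called in a comparison of CR with control. The intervals of their dose slopes were -0.05 to 0.07 for Hibadh and -0.06 to 0.05 for Aldh6a1, so slopes of the size seen for Glul lay outside them. The second probe set of Aldh6a1, at 196.5 to 240.5, had a slope of 0.029 (95% interval -0.04 to 0.09) and was not called either. Its log2 ratios to control were -0.07 to 0.10 at 1 month and -0.13 to 0.07 at 1 week.

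Got1 and Got2 encode the cytosolic and the mitochondrial aspartate aminotransferase, which exchange amino groups between glutamate and aspartate and belong to the malate-aspartate shuttle. Got1 had 1398 on the 1-month control and 1478, 1393, 1428 and 1485 with increasing CR, with the 10% CR array just below the control. After 1 week it had 1345 on the control and 1618, 1466, 1765 and 1860 with increasing CR, all above the control. Its slope was 0.08 ± 0.03 (95% interval 0.01 to 0.14, unadjusted p = 0.0197, limma adjusted p = 0.229). CR against control gave 0.18 ± 0.09 (limma adjusted p = 0.371), and within 1 week the slope was 0.14 ± 0.04 (limma adjusted p = 0.121). With the 1-week control and 5% CR arrays exchanged, the 5% and 10% CR arrays would lie below a control of 1618, and the contrast was 0.014 (limma adjusted p = 0.973).

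Got2 had 3736 on the 1-month control and 3289, 3567, 3558 and 3572 with increasing CR. After 1 week it had 3813 on the control and 3974, 4063, 4432 and 4284 with increasing CR. Every CR array was thus below its control at 1 month and above it at 1 week, the log2 ratios being -0.18 to -0.07 after 1 month and 0.06 to 0.22 after 1 week. With the 1-week control and 5% CR arrays exchanged, the 1-week pattern does not hold, since the 5% CR array would have 3813 against 3974 on the control, and the contrast over both durations turns to -0.018. The difference between durations, -0.23 ± 0.13, was not called (limma adjusted p = 0.752). The mean of the mitochondrial genes ran the same way, at 11.12 to 11.28 log2 on CR arrays against 11.34 on the control at 1 month and 11.50 to 11.60 against 11.46 at 1 week, and its part in the Got2 values was not tested. A second probe set of Got2, with signals of 3.6 to 11.1, did not pass the filter. Gpt, the alanine aminotransferase that forms alanine from pyruvate, had 214.3 to 283.6 on CR arrays against 253.5 on the control at 1 month, and 255.8 to 309.4 against 278.4 at 1 week, and its slope of -0.07 (95% interval -0.14 to 0.0072, limma adjusted p = 0.407) was the most negative of the 10 genes.

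**Figure D2:**
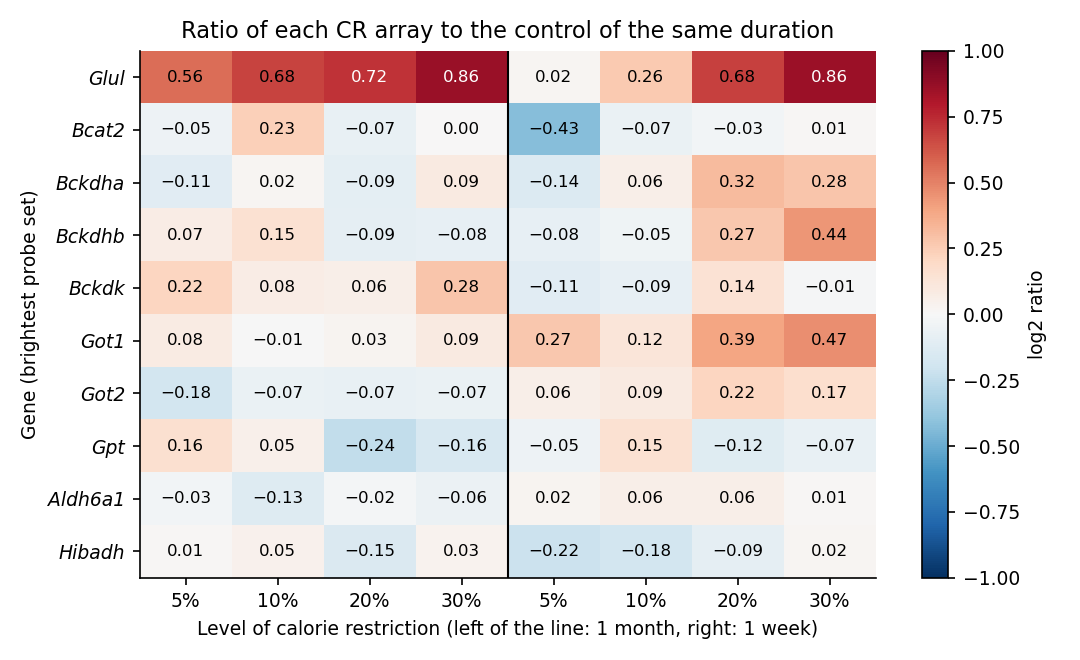
Log2 ratio of each CR array to the control of its duration (colour and printed value) for the brightest probe set of the 10 genes (rows), with 5% to 30% CR for 1 month left of the line and for 1 week right of it. With the arrays as titled, Glul is above 0 in all 8 columns (0.02 to 0.86). Got2 and Aldh6a1, likewise as titled, are below 0 at 1 month and above 0 at 1 week. The ratios of Bckdhb and Got1 reach 0.44 and 0.47 at 30% CR for 1 week.

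Read by ratios alone, with the arrays as titled, Glul was the only 1 of the 10 genes whose 8 ratios had the same sign. This was read on its brightest probe set, and 16.6% of all probe sets tested did so. With the 1-week control and 5% CR arrays exchanged, the 5% CR array of Glul would lie below the control (2086 against 2113). A minimum of 0.25 in all 8 ratios was met by 0 of the 10 genes, against 2.54% of all probe sets, since the 1-week 5% CR ratio of Glul was 0.02. The ratios of a duration share 1 control array and are not independent of each other. The median dose slope of the 10 genes was 0.038, against -0.0033 over all probe sets tested, and 8 of 10 slopes were above 0, against 48.3% of all.

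**Figure D3:**
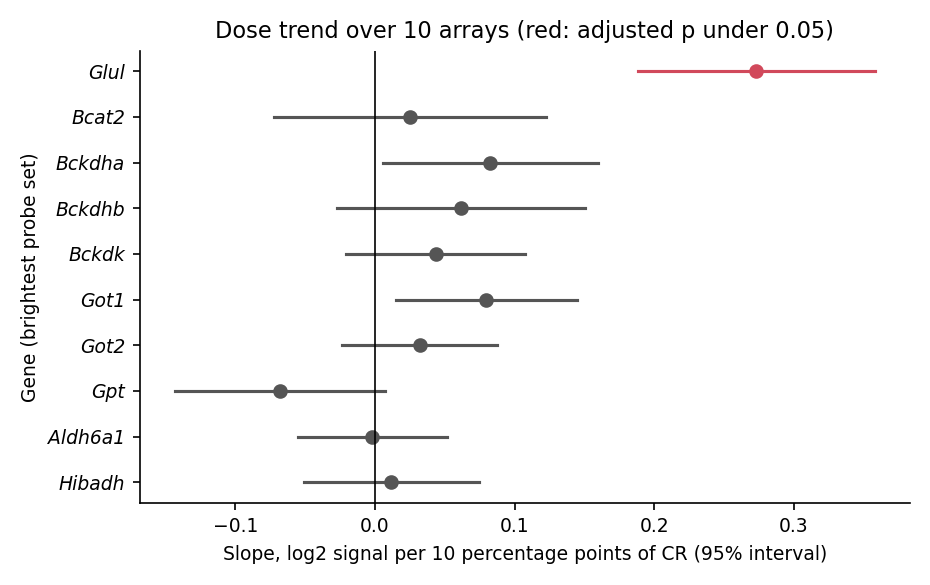
Dose slope of log2 signal per 10 percentage points of CR (x axis; point, estimate; line, 95% interval) for the brightest probe set of each gene (rows), fitted over 10 arrays. Glul, in red, lies at 0.27 with an interval of 0.19 to 0.36, and the slopes of the other 9 genes lie between -0.07 and 0.08.

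Neither way of asking whether CR acted differently at 1 month and at 1 week called any of the genes. For CR against control by duration, 0 of 10 genes passed in limma, 0 had an unadjusted p under 0.05, and 0% of all probe sets were called, with 1121 of 15521 at an unadjusted p under 0.05. For the slopes by duration, 0 of 10 genes passed, Bckdhb and Got1 had an unadjusted p under 0.05 (0.00172 and 0.0376), and 0% of all probe sets were called, with 940 of 15521 at an unadjusted p under 0.05. The slope of Got1 was 0.12 lower at 1 month than at 1 week, a difference of -0.12 ± 0.05. Only 1 of 10 genes had a higher slope at 1 month than at 1 week, against 50.6% of all probe sets. A lower slope was not always a smaller one, since that of Gpt was -0.10 within 1 month and -0.04 within 1 week. None of these differences was called.

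The genes also differed between durations irrespective of CR, in which age and the scaling of the arrays cannot be told apart from the duration of feeding. On signals as deposited, Got2 (-0.21 ± 0.06, limma adjusted p = 0.0101) and Hibadh (-0.20, limma adjusted p = 0.0275) were lower at 1 month than at 1 week. These were 2 of 10 genes, against 32.8% of all probe sets. On the brightest probe sets 0 of 10 genes were called as higher, against 1.13% of all. The dimmest Glul probe set was called as higher (0.41, limma adjusted p = 0.0291), and the second was not (0.20, limma adjusted p = 0.0571). The median of all probe sets was itself shifted by -0.21 in this contrast. After each array was centred on its median, Got2 (0.0021) and Hibadh (0.02) were not called. In that scaling Glul (0.38, limma adjusted p = 0.0118), Bcat2 (0.36, limma adjusted p = 0.0343), Bckdha (0.38, limma adjusted p = 0.00755) and Bckdk (0.22, limma adjusted p = 0.0487) were higher at 1 month, with 4.95% of all probe sets called as higher and 5.17% as lower. Which of these genes counted as different between durations thus turned on the scaling and, for Glul, also on the probe set.

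Few other genes of the pathway passed. Among 23 other BCAA genes tested of 26 listed, 0 were called in the dose trend and 0 had an unadjusted p under 0.05, with a median slope of 0.024. Among 12 other genes of glutamate, aminotransferase and ammonia metabolism, 0 were called and 0 had an unadjusted p under 0.05, with a median of 0.022. The smallest p values in these lists belonged to Pccb, a subunit of propionyl-CoA carboxylase (slope 0.079, limma adjusted p = 0.383), and Oat, ornithine aminotransferase (slope 0.063, limma adjusted p = 0.392). Of 17 tested genes of other amino acid breakdown, 1 rose, 1 fell and 15 were not called, against 0.941% of all probe sets called as higher and 1.06% as lower. Of 22 tested genes of mitochondrial mass, 0 were called, with a median slope of 0.02.

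Cdo1 and Gatm were the breakdown genes that passed. Cdo1, which oxidizes cysteine, had 56.5 on the 1-month control and 62.7, 64.6, 79.5 and 96.5 with increasing CR, and after 1 week 59.8 on the control and 76.6, 81.8, 82.1 and 109.1. It was higher than its control on 8 of 8 CR arrays as titled, and its slope was 0.25 ± 0.04 (limma adjusted p = 0.00974). Gatm, which makes the precursor of creatine from arginine and glycine, had 138.6 on the 1-month control and 70.3, 65.4, 67 and 50 with increasing CR, and after 1 week 304.1 on the control and 235.2, 226.7, 165.4 and 147.5. It was lower than its control on 8 of 8 CR arrays as titled. Its slope was -0.35 ± 0.06 (limma adjusted p = 0.00842), and CR against control gave -0.91 ± 0.18 (limma adjusted p = 0.0154). Without the 1-week 30% CR array the slope of Cdo1 was 0.24 and not called (limma adjusted p = 0.0789). Without the 1-month or the 1-week control the contrast of Gatm was -0.68 or -1.15 and not called (limma adjusted p = 0.299 and 0.0787), and with the 1-week control and 5% CR arrays exchanged it was -0.68 (limma adjusted p = 0.421).

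Of 18 amino acid transporters tested, 2 were up-regulated with the level of CR, against 0.941% of all probe sets, and 16 were not called. Slc38a3, a sodium-coupled carrier of glutamine, had 56.4 on the 1-month control and 91.7, 92.5, 121.4 and 127.6 with increasing CR, and after 1 week 38.6 on the control and 96.0, 97.9, 118.3 and 121.4. As titled, it was higher than the control on 8 of 8 CR arrays, already at 5% CR. CR against control gave 1.2 ± 0.16 (limma adjusted p = 0.00241), and the slope was 0.39 ± 0.08 (limma adjusted p = 0.0305). This value leans on the array whose description contradicts its title: with the 1-week control and 5% CR arrays exchanged the contrast was 0.38 (limma adjusted p = 0.732), and without the 1-week control it was 0.92 (limma adjusted p = 0.0912). Slc43a1, a carrier of large neutral amino acids that include the BCAAs, had 207.3 on the 1-month control and 309.4, 302.1, 271.7 and 367.7 with increasing CR, and after 1 week 223.2 on the control and 210.3, 278.7, 295.1 and 357.7. It was higher on 7 of 8 CR arrays, with a slope of 0.21 ± 0.05 (limma adjusted p = 0.0264). Leaving out single arrays ended the call of the slope for Slc38a3 in 5 cases (both controls, 20% and 30% CR of 1 week and 20% CR of 1 month; 0.27 to 0.44) and for Slc43a1 in 5 cases (both controls, 20% and 30% CR of 1 week and 30% CR of 1 month; 0.18 to 0.21).

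Transcription factors and coactivators known to act on amino acid genes included 3 of 10 that were up-regulated in the dose trend, against 0.941% of all probe sets. Klf15, which in mouse muscle promotes the expression of BCAA breakdown genes, had 246.9 on the 1-month control and 423.9, 426.3, 363.4 and 496.1 with increasing CR, and after 1 week 265.1 on the control and 273.5, 256.9, 357.9 and 481.3. All 1-month CR arrays were above their control, the 1-week 5% and 10% CR arrays lay close to theirs (log2 ratios of 0.04 and -0.05), and the slope was 0.26 ± 0.06 (limma adjusted p = 0.0286). Foxo3, a forkhead factor of the fasting response, was 325.3 to 395.5 on CR arrays against 237.5 on the control at 1 month, and 295.3 to 378.6 against 243.9 at 1 week, with a slope of 0.19 ± 0.04 (limma adjusted p = 0.0119) and 0.49 ± 0.11 for CR against control (limma adjusted p = 0.0272). Ppargc1a, a coactivator of mitochondrial genes, was 247.8 to 276.0 on CR arrays against 180.9 on the control at 1 month and 223.9 to 446.6 against 184.4 at 1 week, with a slope of 0.27 ± 0.07 (limma adjusted p = 0.0496).

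These calls turned on single arrays and on the fit. The call of Klf15 ended without either control, without 20% or 30% CR of 1 week and without 30% CR of 1 month (0.21 to 0.27), that of Foxo3 without either control or without 30% CR of 1 week (0.16 to 0.20 for the slope), and that of Ppargc1a in 8 of 10 cases (0.22 to 0.29), all but those that left out 5% or 30% CR of 1 month. The contrast of Foxo3 was not called without either control or 20% CR of 1 week (0.43 to 0.55), nor with the 1-week control and 5% CR arrays exchanged (0.32, limma adjusted p = 0.502). With the mean of the slow fibre genes as a covariate, none of the 7 slopes of Cdo1, Gatm, Slc38a3, Slc43a1, Klf15, Foxo3 and Ppargc1a passed (limma adjusted p 0.057 to 0.339), at -0.37 for Gatm and 0.17 to 0.28 for the others. Without the variance trend the slope of Cdo1 alone kept its call, and the limma adjusted p of the other 6 was 0.0653 to 0.158, with 0.0824 for the contrast of Gatm and 0.11 for that of Foxo3. The exchange of the 1-week control and 5% CR arrays also ended the call of the slopes of Slc38a3 (0.33, limma adjusted p = 0.154) and Ppargc1a (0.25, limma adjusted p = 0.141). With 1 month alone, a fit that called 6 probe sets in all, none of the 7 slopes passed, at -0.37 for Gatm, 0.26 for Cdo1 and 0.12 to 0.35 for the others. With 1 week alone, Gatm (-0.34, limma adjusted p = 0.022), Klf15 (0.30, limma adjusted p = 0.0396) and Ppargc1a (0.42, limma adjusted p = 0.0304) passed, and the other 4 did not, at 0.20 to 0.43.

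**Figure D4:**
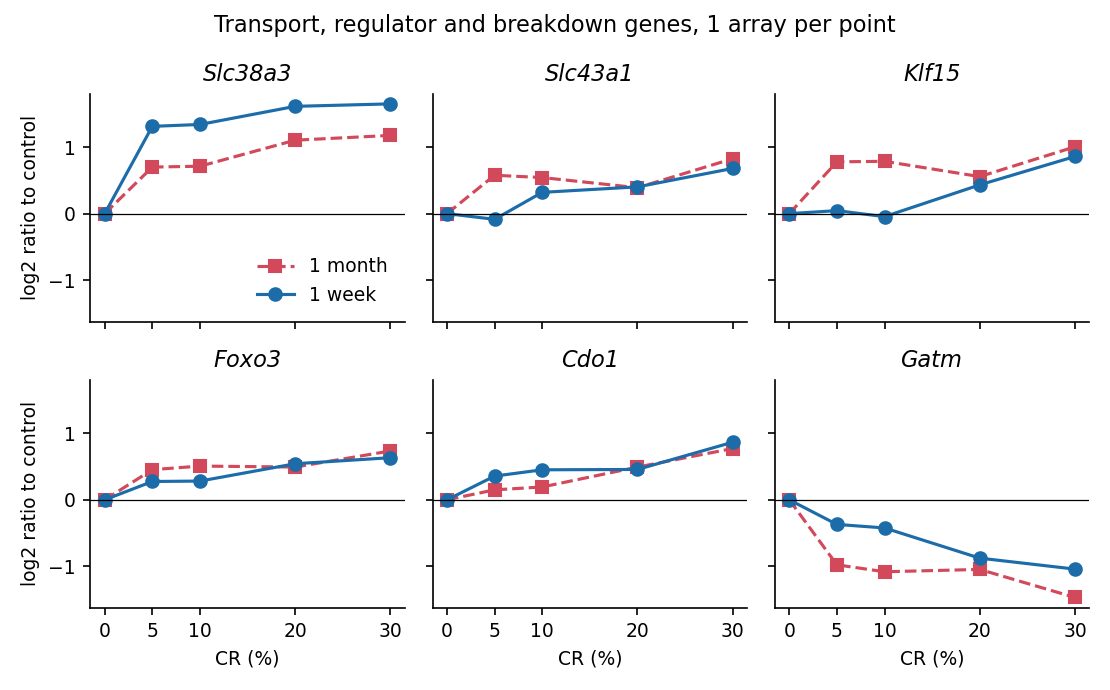
Log2 ratio to the control of the same duration (y axis) against the level of CR (x axis, percent), 1 array per point. Squares stand for 1 month and circles for 1 week, with the control at 0 by construction. Slc38a3, Slc43a1, Klf15, Foxo3, Cdo1 and Gatm, of the transport, regulator and breakdown lists, passed the dose trend. Ppargc1a of the regulator list also passed and is not drawn. Slc38a3 is between 0.70 and 1.65 on all CR arrays, Klf15 is between 0.56 and 1.01 at 1 month and near 0 at 5% and 10% CR for 1 week, and Gatm falls to -1.47 at 1 month and -1.04 at 1 week at 30% CR.

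The patterns over arrays were also set side by side after the mean of each duration was removed. Over all tested genes, those most like Glul were Ocrl (r = 0.983), a phosphoinositide phosphatase, Cir1 (r = 0.982), a transcriptional corepressor, Wipf3 (r = 0.977), an actin regulator, Sft2d2 (r = 0.973), a vesicle transport protein, and Rnf103 (r = 0.972), a ubiquitin ligase. These are Pearson's r over 10 arrays that share their levels of CR, given as a description. Their ratios at 30% CR were smaller than those of Glul with the exception of Ocrl, which had 0.87 at 1 month and 0.92 at 1 week. Among the 10 enzymes, Got1 was the most like Glul (r = 0.698), Bckdha and Got2 the most like each other (r = 0.767), and Gpt was close to none, with Bcat2 nearest at r = 0.169.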

How the data were processed

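RNA of gastrocnemius muscle from 5 rats was pooled per group and hybridized by the authors to 1 Affymetrix rat expression array per group. The deposited table gives linear MAS5 intensities per the labels, 1 for each probe set on each array, scaled by the authors to a common level that differed between durations. The methods name the Affymetrix operating software at its default criteria, which also set detection and change calls that are not used here, and the scaling target is not given in the sources used here. The number of arrays limits the precision.

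Values were floored at 0.1 before the log2 step. After removal of 57 control probe sets, 15521 of 31099 probe sets at or above the 50th percentile of mean log2 signal were tested, among them 13 of the 15 probe sets of the 10 genes. Of all probe sets, 20832 carried 1 gene in the platform annotation, 436 several and 9831 none, and 20764 were matched to RefSeq by gene identifier. The tests used lmFit and eBayes with trend of limma 3.58.1 (R 4.3.3) over all probe sets, with Benjamini-Hochberg adjustment at 0.05. No group had a replicate, so the spread came from the arrays around each fitted line, with 7 residual degrees of freedom for CR against control, the dose trend and duration, 5 for the 8 CR arrays alone and 6 for both comparisons by duration. These contrasts share the control arrays. A gene is given by its brightest probe set unless another is named. From each pathway or marker list, genes named were those that passed (up to 4 per list and comparison, by size) or that with the smallest p, and for Glul the 5 genes most like it. The genes, lists and tests were chosen with earlier results of these data known. The code was tested on simulated data. Alternatives were quantile normalization, median centring, no filter or one at the 70th percentile, an offset of 32 before log2, no variance trend in eBayes, exchange of the 1-week control and 5% CR arrays, slow fibre or mitochondrial gene means as covariates, averaging the probe sets of a gene, each duration alone, the rank of the level, other minimum ratios (0 and 0.5) and leaving out each array. Promoters came from RefSeq (GRCr8). Figures were drawn with matplotlib 3.10.9.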

Additional observations from a re-analysis of the deposited data

Results flagged for a closer look

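Of 20 genes checked (the 10 enzymes, the pathway genes named above and Oxct1), 4 had ratios to control that were all below 0 at 1 month and all above 0 at 1 week. The same was true of 5.21% of all probe sets tested, while 8.67% of all had opposite signs at both durations either way. The pathway genes had been picked by their results in these same data, so the set of 20 cannot be weighed against those shares. For CR against control, the difference of 1 month minus 1 week was -0.23 for Got2 (limma adjusted p = 0.752), -0.10 for Aldh6a1 (limma adjusted p = 0.926), -0.71 for Oxct1, which activates ketone bodies (limma adjusted p = 0.384), and -0.50 for Pccb (limma adjusted p = 0.628). The pattern of Aldh6a1 holds for its brightest probe set only, since its second had ratios of either sign at both durations and a difference of 0.04. All 4 patterns rest on the titles of the 1-week control and 5% CR arrays, whose description lines contradict them: exchanged, the 5% CR array would lie below the control for Got2 (3813 against 3974), Aldh6a1 (482.8 against 490.9) and Pccb (547.0 against 638.9), and every 1-week CR array of Oxct1 would lie below a control of 1159. None of these differences passed the test of the difference itself. Oxct1 had 724.2 to 874.3 on CR arrays against 1169 on the control at 1 month, and 906.3 to 1159 against 890.7 at 1 week. Pccb had 481.2 to 603.2 on CR arrays against 609.1 on the control at 1 month, and 613.3 to 796.5 against 547.0 at 1 week.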

How the results depend on the processing

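No paired analysis was possible because each group has 1 array. The dose slope of Glul stayed past the threshold in 22 of 23 alternatives (0.21 to 0.33; limma adjusted p 0.000834 to 0.333), the exception being 1 month alone, in which 0 of the 10 genes were called. For CR against control, the number of genes called was 1 (Glul) with quantile normalization and with 1 month alone and 0 to 1 when single arrays were left out, and the limma adjusted p of Glul ranged from 0.00988 to 0.628 over 22 alternatives. For the dose trend on CR arrays alone the number was 1 with median centring, with log2 of signal plus 32 and with the rank of the level, and 0 to 1 without single arrays (1 without 1-month 30% CR). Between durations it was 4 with quantile normalization and 4 with median centring, 1 with no filter, 1 without variance trend, 0 with the mitochondrial covariate and 1 to 3 without single arrays. With a minimum ratio of 0 and the arrays as titled, the number of genes past it in all 8 ratios was 1. The cause of these changes was not tested.

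Signs turned only for estimates near 0 that were called under none of the alternatives. For CR against control, the exchange of arrays gave 0.2165 for Bcat2, -0.01839 for Got2 and 0.07089 for Hibadh; the slow fibre covariate gave 0.01792 for Bcat2, -0.01681 for Bckdha, -0.05236 for Got2 and 0.05173 for Gpt. 1 week alone gave -0.01726 for Bckdk and 0.03848 for Aldh6a1, and 1 month alone 0.02785 for Bcat2, -0.02376 for Bckdha and -0.09651 for Got2. For the dose slope, quantile normalization gave -0.004235 for Hibadh, median centring 0.006094, the mean of probe sets 0.01324 and 1 week alone 0.004972 for Aldh6a1, and 1 month alone -0.01243 for Bcat2, -0.05316 for Bckdhb and -0.01199 for Hibadh. Without single arrays, CR against control ranged from -0.1268 to 0.02785 for Bcat2, -0.02376 to 0.1291 for Bckdha, -0.09651 to 0.134 for Got2, -0.01726 to 0.1571 for Bckdk and -0.05943 to 0.03848 for Aldh6a1, and the slope from -0.003028 to 0.04808 for Bcat2, -0.007775 to 0.005641 for Aldh6a1 and -0.014 to 0.0302 for Hibadh. CR against control by duration could not be fitted without either control. Over all probe sets, calls numbered 311 (1 to 455 over the alternatives) for CR against control, 310 (6 to 433) for the dose trend, 38 (1 to 48) for CR arrays alone and 5263 (21 to 5331) between durations.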
